A study of Mus musculus with 16 samples.

Results

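The genes described here were the 37 genes that the deposited count table places on the mitochondrial genome (MT), of 56748 genes in all. They comprised 13 protein-coding genes, 2 rRNA genes and 22 tRNA genes, and their positions, taken from the files, were the same in GENCODE release M39 on GRCm39 (mm39) for all 37. Bulk RNA-seq of poly(A)-selected RNA was performed on the LMMP, the longitudinal muscle layer of the colon with the myenteric plexus attached to it. The HSCR mice were Ednrb-/- (homozygous for Ednrb tm1Ywa, a germline knockout allele present in all cells), a model of Hirschsprung disease, and the WT mice were their Ednrb+/+ littermates on the same hybrid C57BL6/J-129Sv background. Mice of both sexes were 2 to 4 weeks old. In this model the distal colon lacks enteric ganglia, while the proximal colon has them. The 16 libraries fell into 4 groups of 4, named WT proximal, HSCR proximal, WT distal and HSCR distal by genotype and by segment of the colon. The distal libraries carry the proximal colon in their tissue label and the distal colon in their titles, and they were taken as distal.

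Between 21384372 and 45831881 reads per library were counted on genes. Ednrb, the targeted gene, was at 33.9 to 67.7 CPM in WT proximal and 7.85 to 36.3 CPM in HSCR proximal libraries (log2 fold change -1.26, adjusted p = 0.747, edgeR's quasi-likelihood test). Distally it was at 12.2 to 40.2 CPM in WT, and at 97.0 CPM in HSCR library 1 against 5.55 to 9.57 CPM in HSCR libraries 2 to 4 (log2 fold change 0.27). Counts on Ednrb do not show whether the allele makes receptor, so this gene checks the labels only in part. Smooth muscle markers, which define the muscle layer, were present in all 16 libraries. Their sum was 4451 CPM in HSCR proximal library 2 and 23550 CPM or more in every other library, and epithelial markers summed to 14027 CPM in that library against at most 4609 CPM elsewhere. Enteric neuron markers summed to 1011 CPM in HSCR distal library 1 and to 8.25 to 49.2 CPM in the other HSCR distal libraries, and to 62.2 and 98.1 CPM in HSCR proximal libraries 1 and 2 against 2520 and 1758 CPM in libraries 3 and 4. The same sum ran from 378 to 2349 CPM in WT proximal libraries, and it was 1610 and 1161 CPM in WT distal libraries 3 and 4, 226 CPM in library 2 and 55.8 CPM in library 1. A low sum therefore also occurred in a WT library, but a high sum in HSCR distal tissue occurred in library 1 alone. The segment labels of HSCR libraries 1 were in doubt, and the main results are also given without them. Ednrb in HSCR distal library 1 also lay above the highest WT library, at 67.7 CPM, so its genotype label was in doubt as well. WT distal library 1, low in Ednrb (12.2 CPM) and in neuron markers (55.8 CPM), was kept as WT. Whether genotype labels were exchanged was not tested.

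The mitochondrial genome is a small circle present in many copies per cell. It encodes core subunits of 4 of the respiratory chain complexes together with the rRNAs and tRNAs that translate them inside the organelle, while the remaining subunits and the machinery of its expression come from nuclear genes. Each strand is transcribed as a long precursor, which is cut mostly at the tRNAs that lie between the mRNAs and rRNAs. Most of the mRNAs then receive short poly(A) tails. In muscle, mitochondrial transcripts are commonly among the most abundant RNAs.

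The ends of the coding genes show how closely they are packed, and are printed because poly(A) selection acts on these ends. Of the 13 protein-coding genes, 8 ended in a full TAA stop codon, 2 in TAG and 3 in a single T after the last full codon (mt-Co3, mt-Nd4 and mt-Cytb), to which the poly(A) tail adds the missing bases of the stop. The last 30 bases of these 3 genes and of mt-Co1 follow, with the stop or its first base in capitals.
mt-Co1, MT 6843 to 6872, plus strand: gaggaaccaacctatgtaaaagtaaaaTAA
mt-Co3, MT 9361 to 9390, plus strand: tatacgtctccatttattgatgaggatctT
mt-Nd4, MT 11515 to 11544, plus strand: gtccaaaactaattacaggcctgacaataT
mt-Cytb, MT 15259 to 15288, plus strand: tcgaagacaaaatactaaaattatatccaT
The tRNA gene mt-Tg begins at base 9391, directly after mt-Co3, and mt-Tt begins at base 15289, directly after mt-Cytb. The genes mt-Atp8 and mt-Atp6, which encode 2 subunits of ATP synthase, lie on the same RNA and share 43 bases, shown in capitals within MT 7915 to 7981.
mt-Atp8 and mt-Atp6: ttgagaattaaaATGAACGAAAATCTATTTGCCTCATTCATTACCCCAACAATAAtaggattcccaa
A read within these capitals lies in both genes.

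Reads on the 37 genes, 71519826 in all, took 49.8%, 17.8%, 7.31% and 34.6% of all counts in WT proximal libraries 1 to 4. In HSCR proximal libraries 1 to 4 they took 5.56%, 6.68%, 6.34% and 20.1%. WT libraries 1 and 4 lay above every HSCR library, while WT libraries 2 and 3 lay below HSCR library 4, so the groups overlapped. The distal shares were 23.7%, 16.1%, 7.93% and 4.32% in WT and 11.3%, 10.03%, 5.93% and 7.11% in HSCR. The WT distal libraries spanned the whole HSCR distal range. The mean share was 27.4% ± 18.7 (SD, n = 4) in WT proximal, 9.67% ± 6.97 in HSCR proximal, 13.02% ± 8.66 in WT distal and 8.59% ± 2.496 in HSCR distal libraries. HSCR minus WT was -17.7 percentage points in the proximal colon with a pooled SD of 14.1, and -4.43 points in the distal colon with a pooled SD of 6.37. In bulk tissue, fewer cells rich in mitochondria and fewer mitochondrial transcripts per cell cannot be told apart.

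**Figure D1:**
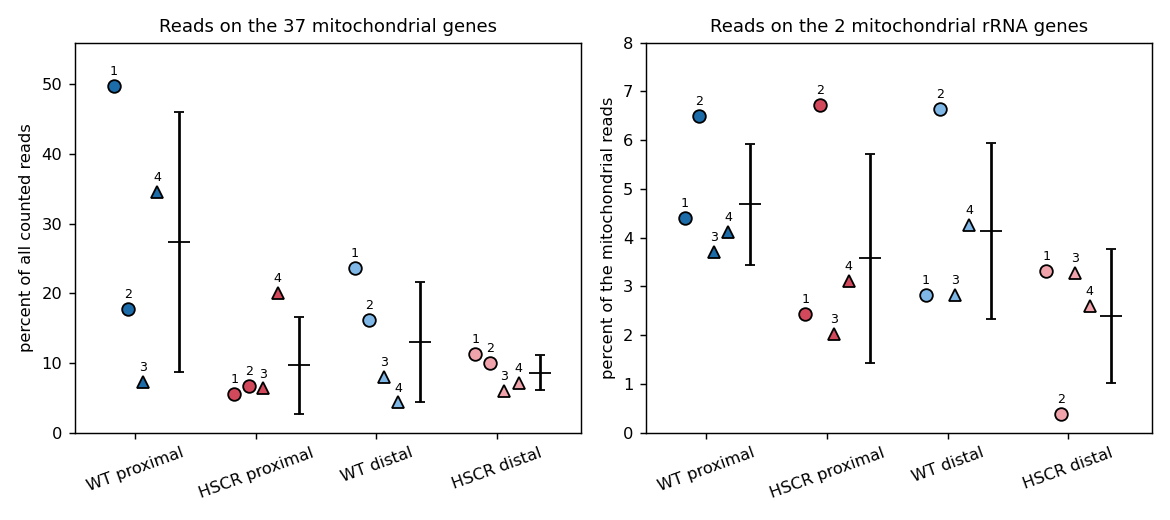
Left, reads on the 37 mitochondrial genes as percent of all counted reads (y axis), and right, reads on the 2 mitochondrial rRNA genes as percent of the mitochondrial reads, for the 4 groups. Each symbol is 1 library with its replicate number, circles for the first and triangles for the second series of library names, and the bar beside each group gives the mean ± SD (n = 4). WT proximal libraries 1 and 4 lie at 49.8% and 34.6%, and HSCR distal library 2 has an rRNA share of 0.384%.

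Library names of replicates 1 and 2 follow the same scheme in every group, and these were taken as a first series. Replicates 3 and 4 have names beginning with CM or LC and were taken as a second series, in which both WT proximal libraries and HSCR proximal library 4 are CM, and HSCR proximal library 3 and all distal libraries are LC. The labels give the same batch for all libraries. Within the first series HSCR minus WT was -27.7 points in the proximal and -9.25 points in the distal colon, from 2 libraries per group. Within the second it was -7.73 points in the proximal and 0.39 points in the distal colon, where the direction turned. WT proximal libraries 1 and 4 set most of the proximal difference, which was -2.88 points without both. Without HSCR library 1 of each segment the differences were -16.3 and -5.33 points.

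Distal minus proximal was -14.4 points in WT and -1.08 points in HSCR mice, against pooled SDs of 14.6 and 5.23. These 2 differences use the same 16 libraries as the genotype differences and are not independent of them. In WT the value was -13.9 points within the first and -14.8 points within the second series, where segment and name prefix (CM or LC) cannot be told apart, but 0.47 points without WT proximal libraries 1 and 4. In HSCR mice it was 4.55 points within the first series, which holds both libraries whose segment labels were in doubt, and -6.70 points within the second. Without HSCR library 1 of each segment the HSCR difference was -3.35 points.

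Within the mitochondrial reads, some genes kept a steady share and others did not. For mt-Cytb, the steadiest, the highest library had 10.7 times the lowest as a share of all counts and 1.35 times as a share of the mitochondrial reads. For mt-Co1 the latter ratio was 1.62, whereas it was 24.05 for mt-Rnr1, 16.2 for mt-Rnr2 and 15.8 for mt-Nd4l. The 6 genes mt-Co1, mt-Cytb, mt-Nd1, mt-Nd4, mt-Nd5 and mt-Nd2 held 89.4% to 96.4% of the mitochondrial reads in every library. The 13 protein-coding genes held 93.1% to 99.5%, the 2 rRNA genes 0.384% to 6.73% and the 22 tRNA genes 0.0260% to 0.123%.

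Complex IV, cytochrome c oxidase, passes electrons to oxygen, and its 3 mitochondrial subunits held 40.6% ± 5.09 (SD, n = 16) of the mitochondrial reads. Nearly all of these were on mt-Co1, the catalytic subunit (MT 5328 to 6872), which ranked first in all 16 libraries. Its share of the mitochondrial reads was 43.7%, 32.2%, 35.9% and 34.8% in WT proximal and 39.2%, 52.1%, 40.2% and 37.03% in HSCR proximal libraries. The distal values were 41.4%, 35.8%, 37.2% and 38.3% in WT and 35.5%, 46.8%, 40.9% and 36.9% in HSCR libraries. The groups overlapped in both segments, and the highest values were in HSCR library 2 of each segment. The other 2 subunits were far lower, with a mean share of 0.718% for mt-Co2 (MT 7013 to 7696) and 0.622% for mt-Co3 (MT 8607 to 9390). As a share of the summed FPKM of the 37 genes, which divides by gene length, mt-Co1 had a median of 30.4% against 1.28% for mt-Co2 and 0.846% for mt-Co3.

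Complex III is represented by 1 mitochondrial gene, mt-Cytb (cytochrome b, MT 14145 to 15288), which ranked second in all 16 libraries with 17.6% ± 1.09 of the mitochondrial reads. Its share was the steadiest of all members. The lowest value, 14.2%, was in HSCR proximal library 2, and the other 15 libraries lay between 16.6% and 19.1%.

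Complex I takes electrons from NADH, and its 7 mitochondrial subunits together held 37.5% ± 4.202 of the mitochondrial reads. The most counted was mt-Nd1 (mean 11.2%), which ranked after mt-Cytb in every library, followed by mt-Nd4 (9.11%), mt-Nd5 (7.74%), mt-Nd2 (7.39%), mt-Nd6 (1.87%), mt-Nd3 (0.0769%) and mt-Nd4l (0.0299%). HSCR proximal library 2 had the lowest complex I share of all, 25.2%, with 3.86% on mt-Nd5 and 3.72% on mt-Nd2. On the FPKM scale, the median over libraries fell from 8833 for mt-Nd1 to 193 for mt-Nd3 and 68.2 for mt-Nd4l, so the short genes were low per length as well as in reads. The 2 ATP synthase subunits of complex V held 0.628% ± 0.306 of the mitochondrial reads, nearly all on mt-Atp6, with a mean of 0.00564% on mt-Atp8.

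**Figure D2:**
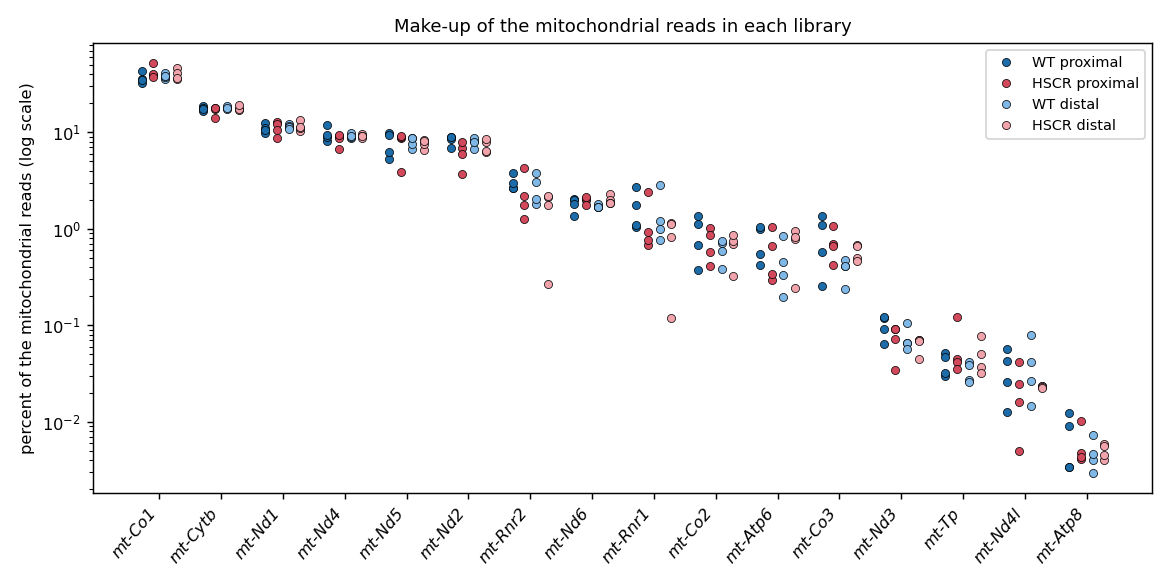
Share of the mitochondrial reads (y axis, percent, log scale) of the 16 mitochondrial genes with counts in every library (x axis, ordered by their mean share), with 1 point per library coloured by group. The order of mt-Co1, mt-Cytb and mt-Nd1 is the same in every library, and both rRNA genes have 1 low point, HSCR distal library 2.

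The gene mt-Nd6 (MT 13552 to 14070) is the only protein-coding gene on the minus strand, opposite the transcripts of its neighbours, and 8 tRNA genes share that strand. It held 1.36%, 2.02%, 1.99% and 1.82% of the mitochondrial reads in WT proximal and 1.99%, 2.04%, 2.12% and 1.77% in HSCR proximal libraries, which overlapped. In the distal colon the WT libraries held 1.68%, 1.80%, 1.70% and 1.67% and the HSCR libraries 2.29%, 2.01%, 1.86% and 1.84%. The lowest HSCR distal library, at 1.84%, lay above the highest WT distal library, at 1.80%. This was 1 of 17 genes with counts whose shares of the mitochondrial reads did not overlap there, and the number was 0 of 17 in the proximal genotype comparison and in both segment comparisons. As a share of all counts the same gene overlapped between these groups, where 1.72% of 19990 genes did not. Shares of the mitochondrial reads have no background over all genes, so 1 of 17 is not read as a genotype difference. The 17 include mt-Ts1, which had counts in 3 libraries and so could not separate any groups. Per length, the reads on mt-Nd6 were 67.6% to 185% of those on mt-Nd5, its neighbour on the plus strand. The strand setting of the counting is not given in the sources used here, so reads of mt-Nd6 and of a plus-strand RNA across the same bases cannot be told apart.

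The 2 rRNA genes encode the small (mt-Rnr1, MT 70 to 1024) and large (mt-Rnr2, MT 1094 to 2675) ribosomal RNAs of the mitochondrial ribosome. Together they held 4.40%, 6.50%, 3.71% and 4.12% of the mitochondrial reads in WT proximal and 2.43%, 6.73%, 2.03% and 3.11% in HSCR proximal libraries. Distally they held 2.82%, 6.64%, 2.82% and 4.27% in WT and 3.31%, 0.384%, 3.28% and 2.59% in HSCR libraries. The highest share in 3 of the groups and the lowest share of all were in libraries numbered 2. HSCR distal library 2 had 8839 rRNA reads of 2301603 mitochondrial reads, while its mt-Cytb share, 17.2%, lay within the range of the other libraries. Per length, reads on mt-Rnr2 were 0.805 to 1.65 times those on mt-Rnr1, and in HSCR distal library 2 both genes were low in a ratio of 1.36.

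Of the 22 tRNA genes, 20 had no read in any library, 0 of 71519826 mitochondrial reads, which allows a share of up to 4.19e-06% each (3 counts, counting error only). The tRNA of proline, mt-Tp, had 30585 reads in all and some in every library, and a tRNA of serine, mt-Ts1, had 7 reads in 3 libraries. Both lie on the minus strand and are printed 5′ to 3′ with the anticodon in capitals, because no other tRNA gene was counted.
mt-Tp, MT 15356 to 15422, minus strand: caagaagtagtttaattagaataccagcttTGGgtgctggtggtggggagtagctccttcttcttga
mt-Ts1, MT 6870 to 6938, minus strand: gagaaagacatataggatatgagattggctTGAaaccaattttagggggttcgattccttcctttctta
The surroundings of these genes differ. A read can cover mt-Tp without touching another gene within a stretch of 944 bases, since the gene borders the noncoding control region, whereas the stretch was 58 to 105 bases for the 20 uncounted tRNA genes and 69 bases for mt-Ts1. Whether the reads on mt-Tp came from the tRNA or from longer RNA across it was not tested. The share of mt-Tp in the mitochondrial reads was 0.0521%, 0.0473%, 0.0295% and 0.0323% in WT proximal and 0.0448%, 0.123%, 0.0418% and 0.0350% in HSCR proximal libraries. It was 0.0413%, 0.0392%, 0.0268% and 0.0260% in WT distal and 0.0505%, 0.0769%, 0.0373% and 0.0320% in HSCR distal libraries. The highest values were in HSCR library 2 of each segment, and the groups overlapped in both segments.

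The nuclear genome holds a near-identical copy of part of the mitochondrial genome. On GRCm39, MT 6394 to 11042 matched the minus strand of chr1:24650616-24655265 in 3 exact runs, the longest of 3067 bases. There, 7 annotated genes held counts, each a copy of 1 mitochondrial gene with an identity of 98.8% to 100%. A 61-base window at the single mismatch inside the copy of mt-Nd3 is shown, with that base in capitals (T31C, counted from 1 at the 5′ end, mitochondrial base first). The window begins within mt-Tg, which ends at base 9458, and mt-Nd3 begins at base 9459. On chromosome 1 the window likewise runs past the end of Gm28438 at base 24652200.
mt-Nd3, MT 9431 to 9491, plus strand: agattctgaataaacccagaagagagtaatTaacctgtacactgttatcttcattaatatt
Gm28438, chr1:24652168-24652228, minus strand: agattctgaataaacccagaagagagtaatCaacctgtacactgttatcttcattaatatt
A read that does not cover this base is the same in both places.

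Every gene was cut into all its windows of 100 bases, and each window was searched for in the nuclear chromosomes on both strands. All windows of mt-Co2, mt-Atp8, mt-Atp6, mt-Co3 and mt-Nd4l, and 98.8% of those of mt-Nd3, also occurred in the nuclear genome. The share was 60.8% for mt-Nd4, 30.8% for mt-Co1, 3.19% for mt-Nd2 and 1.21% for mt-Rnr2, and 0% for mt-Nd1, mt-Nd5, mt-Nd6, mt-Cytb and mt-Rnr1. The 6 genes at 98.8% or more were the 6 lowest of the 15 protein-coding and rRNA genes in median FPKM, between 25.7 for mt-Atp8 and 794 for mt-Co2, while the other 9 lay between 1018 for mt-Rnr1 and 22663 for mt-Co1. The 6 are also neighbours on the genome and include the 3 shortest of the 15, so copy, position and length go together here, and the part of each in the low counts was not tested.

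**Figure D3:**
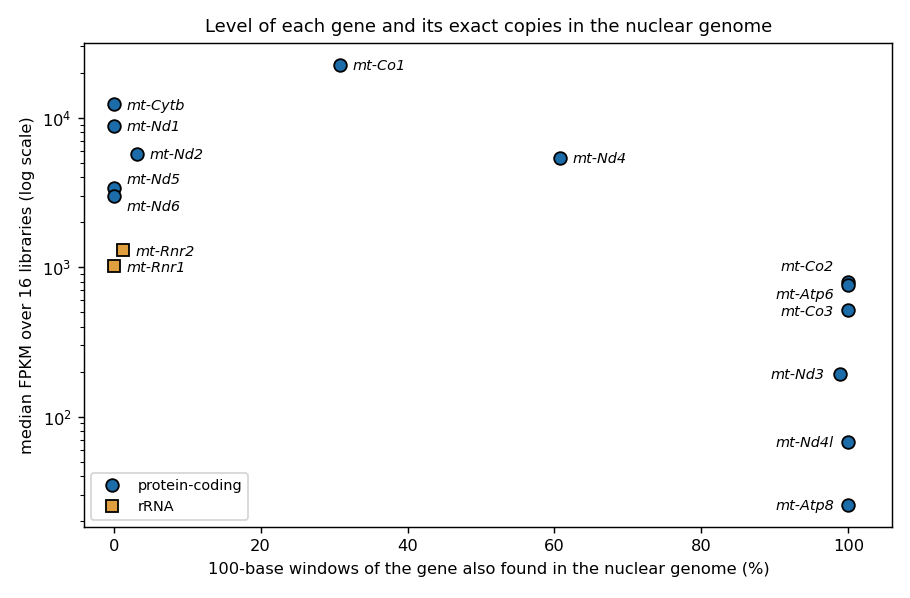
Median FPKM over 16 libraries (y axis, log scale) against the percent of the 100-base windows of a gene that also occur in the nuclear genome (x axis), with 1 point for each of the 13 protein-coding genes (circles) and 2 rRNA genes (squares). The 6 genes at 98.8% or 100% have a median FPKM of at most 794, and the other 9 of at least 1018.

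Reads were also counted on the chromosome 1 copies. The copy of mt-Nd4l, Gm10222, held a median of 50.2% of the reads of its pair, and the copies of mt-Atp6 (Gm10925), mt-Co3 (Gm28437), mt-Co2 (Gm28661) and mt-Nd3 (Gm28438) held 42.6%, 35.8%, 29.8% and 27.6%. The copies of mt-Nd4 (Gm28439) and mt-Co1 (Gm29216), whose mitochondrial genes extend beyond the copied stretch, held 1.93% and 0.817%. For mt-Nd3 and its copy the share ranged from 15.99% in WT proximal library 2 to 69.3% in HSCR proximal library 1. For mt-Co3 it was 40.7%, 44.7%, 40.5% and 43.0% in WT distal and 22.1%, 31.2%, 30.4% and 32.5% in HSCR distal libraries. The HSCR distal libraries all lay below the WT distal libraries for this pair, whereas in the proximal colon WT (28.4% to 39.3%) and HSCR (25.4% to 38.4%) overlapped. It was the only 1 of the 7 pairs whose groups did not overlap in the distal genotype comparison, and also in the WT segment comparison, and the number was 0 of 7 in the proximal genotype and the HSCR segment comparison. Such pairs have no background over all genes, so 1 of 7 is not read as a difference between groups. How the counting treated reads that match 2 places is not given in the sources used here, and reads of a mitochondrial gene and of its copy cannot be told apart outside the mismatches. Levels of the 6 genes with 98.8% or more of their windows in the nuclear genome are therefore uncertain. Those of mt-Nd4 (60.8%) and mt-Co1 (30.8%) are uncertain in part. With the 7 copies added to the mitochondrial reads, the proximal difference in total share was -18.1 points. This sum cannot show the effect of reads left uncounted because they match 2 places.

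**Figure D4:**
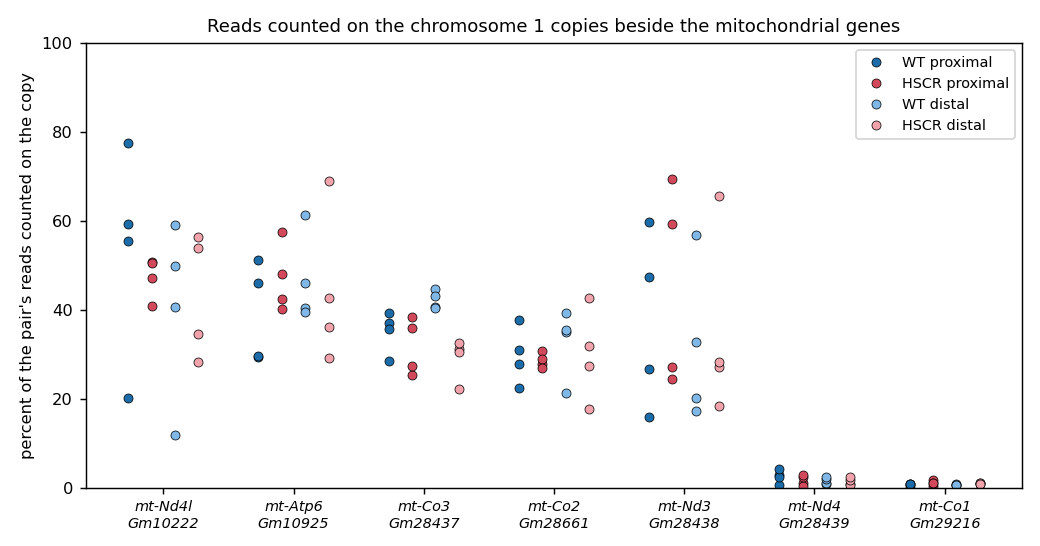
Reads counted on the chromosome 1 copy as percent of the reads on the copy and its mitochondrial gene (y axis) for the 7 pairs (x axis), with 1 point per library coloured by group. The medians run from 50.2% for mt-Nd4l to 0.817% for mt-Co1, and for mt-Co3 the HSCR distal points (22.1% to 32.5%) lie below the WT distal points (40.5% to 44.7%), while these groups overlap in the other 6 pairs.

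Whether single genes differed between genotypes was tested with edgeR over all genes, where 16 of the 37 passed the filter on low counts. In the proximal colon the fitted log2 fold change, HSCR against WT, was negative for all 16, between -2.45 (mt-Nd4l) and -1.60, with a median of -1.94 against 0.04 over all 16664 genes tested. None was called (the smallest adjusted p was 0.747), and no gene of the 16664 was called by this test, a call being an adjusted p under 0.05 together with a log2 fold change past 1 in size. At an unadjusted p under 0.05, 3 of the 16 were lower in HSCR, where 4.13% of all genes were (689 of 16664, and 6.62% or 1103 in either direction). These 16 fold changes are not independent, since genes on the same strand lie on the same precursor RNA and all 16 scale with the same total.

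The 3 genes were mt-Rnr1, mt-Rnr2 and mt-Nd3. As a share of all counts, mt-Rnr1 was at 0.880%, 0.485%, 0.0768% and 0.381% in WT proximal and 0.0374%, 0.161%, 0.0486% and 0.188% in HSCR proximal libraries (log2 fold change -2.44 ± 0.94 SE, adjusted p = 0.747). For mt-Rnr2 the values were 1.31%, 0.672%, 0.194% and 1.04% in WT and 0.0975%, 0.288%, 0.0801% and 0.438% in HSCR libraries (-2.18 ± 0.93, adjusted p = 0.747). For both genes WT libraries 1, 2 and 4 lay above all HSCR libraries, and WT library 3 lay among them. For mt-Nd3, a small complex I subunit, the values were 0.0320%, 0.0162%, 0.00862% and 0.0423% in WT and 0.00189%, 0.00481%, 0.00579% and 0.0183% in HSCR libraries (-1.99 ± 0.88, adjusted p = 0.747). HSCR library 4 was the only HSCR library within the WT range for this gene. The most counted gene, mt-Co1, was at 21.8%, 5.73%, 2.62% and 12.1% of all counts in WT and 2.18%, 3.48%, 2.55% and 7.44% in HSCR libraries (-1.85 ± 1.20, adjusted p = 0.787). Of the 17 mitochondrial genes with counts, 0 had groups that did not overlap as a share of all counts, where 4.05% of 19990 genes did. The number was also 0 in the distal genotype comparison and in the WT and HSCR segment comparisons, where 1.72%, 5.34% and 1.21% of the 19990 genes did. The 17 include mt-Ts1, with counts in 3 libraries, which could not separate any groups and lies outside the 19990.

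The number of genes at an unadjusted p under 0.05 rested on single libraries. It was 0 without WT proximal library 1, with a median log2 fold change of -1.32, and 14 without HSCR proximal library 4, with a median of -3.02. It was also 0 without HSCR proximal library 1 or 3, 1 without WT proximal library 4 or HSCR proximal library 2, and 6 without WT proximal library 3. RUVr with 4 factors removes estimated unwanted variation and leaves few residual degrees of freedom among 8 libraries. It called 15 of the 16 genes lower, among 3194 genes called of the 16664 tested. DESeq2 called none of the 16 among 181 calls. At an unadjusted p under 0.05 the number was 16 with RUVr and 15 with DESeq2, against 3 with edgeR. The share of all genes at this limit is given above for the main edgeR fit only. The numbers at this limit from the other fits and from leaving out libraries therefore have no background beside them. They are not read as a result about the mitochondrial genes.

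In the distal colon all 16 log2 fold changes, HSCR against WT, were again negative, from -1.79 (mt-Nd4l) to -0.0053 (mt-Atp6) with a median of -0.63, against 0.04 over all 17059 genes tested. None was called (adjusted p = 1.00 for each), no gene of the 17059 was called, and 0 of the 16 had an unadjusted p under 0.05, where 1.76% of all genes were lower (300, and 2.64% or 450 in either direction). The rRNA genes lay apart from most mRNAs, with -1.60 ± 0.87 for mt-Rnr1 and -1.34 ± 0.73 for mt-Rnr2 against -0.63 ± 0.65 for mt-Co1. Without HSCR distal library 2, whose rRNA share was low, the values were -1.25 for mt-Rnr1 and -1.003 for mt-Rnr2, and without WT distal library 2, whose rRNA share was high, they were -0.88 and -0.93. For mt-Nd4l the value was -0.17 without WT distal library 1, which held 0.0187% of all counts on this gene against at most 0.00328% in the other 7 distal libraries. Without WT distal library 1 the median over the 16 genes was -0.12.

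**Figure D5:**
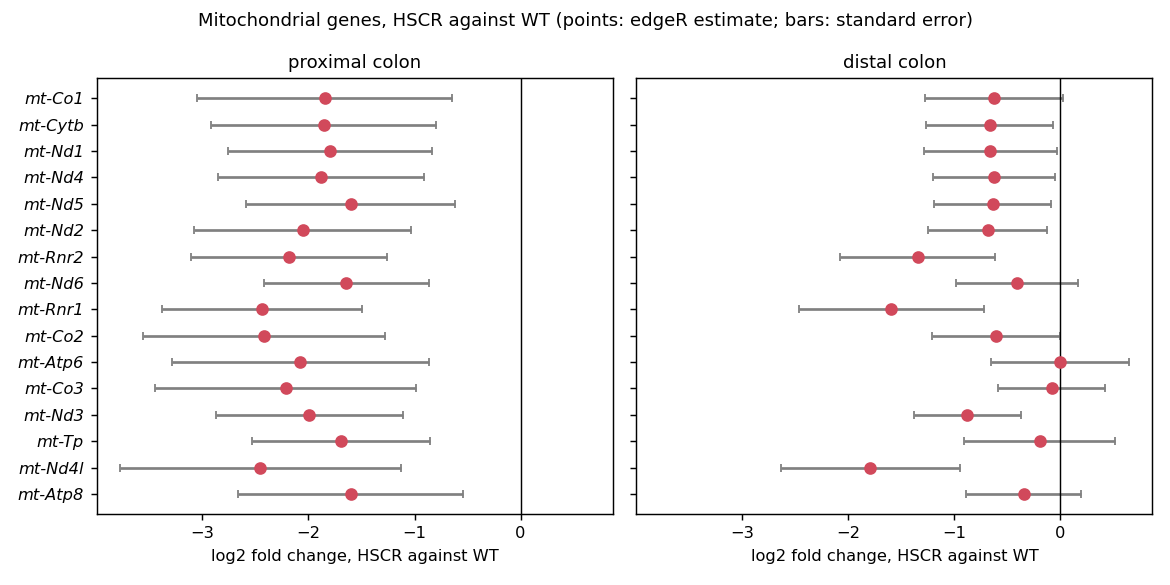
Log2 fold change, HSCR against WT (x axis), of the 16 tested mitochondrial genes (y axis, in the order of their share of the mitochondrial reads) in the proximal (left) and distal colon (right), as points with their standard error from edgeR (n = 4 per group). All proximal values lie between -2.45 and -1.60, and in the distal colon mt-Nd4l and the rRNA genes lie lowest.

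Distal against proximal colon was tested in a model over all 16 libraries, which shares its libraries with the comparisons above. In WT mice all 16 genes had negative log2 fold changes with a median of -1.65, and 6 were lower at an unadjusted p under 0.05, where 1.8% of all 18619 genes were (336, and 4.83% or 900 in either direction). The 6 were mt-Co3 (-3.17 ± 1.05), mt-Atp6 (-2.70 ± 1.07), mt-Co2 (-2.48 ± 0.98), mt-Atp8 (-2.26 ± 0.90), mt-Nd3 (-1.89 ± 0.77) and mt-Tp (-1.82 ± 0.85), with an adjusted p of 0.956 for each. Of the 6, 5 lie in the stretch copied on chromosome 1. The 7 copies had log2 fold changes of -3.04 to -1.98 in the same comparison, each at an unadjusted p under 0.05. As a share of all counts, mt-Co3 was at 0.676%, 0.0450%, 0.0425% and 0.375% in WT proximal and 0.0970%, 0.0387%, 0.0381% and 0.0178% in WT distal libraries. WT proximal libraries 1 and 4 stood above the other 6, and the groups overlapped. Without WT proximal library 1 the median was -1.09 and 2 genes had an unadjusted p under 0.05, and across the libraries left out in turn this number ran from 1 to 15. It was 13 with DESeq2, 15 with limma-voom and 2 with the replicate number as a block, and the share of all genes in these other fits is not given.

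In HSCR mice the median of the 16 log2 fold changes, distal against proximal, was -0.54, with 0 genes at an unadjusted p under 0.05, where 1.2% of all genes were lower (223, and 2.56% or 476 in either direction). Without HSCR proximal library 4 the median was 0.54, and without HSCR library 1 of both segments it was -1.03. The difference of the genotype effects between segments was itself tested and had a median log2 value of 1.22 over the 16 genes, with 0 genes at an unadjusted p under 0.05, where 1.44% of all genes were (269 in either direction). Without HSCR proximal library 4, 7 of the 16 passed that limit, and without HSCR library 1 of both segments 0 did, with a median of 0.74. The share of all genes in these fits with libraries left out is not given. DESeq2 called 18 genes in the WT segment comparison and 6 for the interaction, none of them mitochondrial.

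The nuclear genes that replicate, transcribe and process mitochondrial nucleic acids did not have the uniformly negative sign of the mitochondrial genes. Of 39 such genes 38 were tested, and in the proximal colon their median log2 fold change, HSCR against WT, was 0.23, with 29 positive, 9 negative and 0 at an unadjusted p under 0.05. Among them, Tfam, which packages mitochondrial DNA and starts its transcription, was at 0.34 ± 0.33, the mitochondrial RNA polymerase Polrmt at 0.01 ± 0.37 and the helicase Twnk at -0.38 ± 0.39. The DNA polymerase subunit Polg was at -0.04 ± 0.26 and the mRNA stabilising protein Lrpprc at 0.49 ± 0.25. The smallest p-values belonged to Polg2, the accessory subunit of that polymerase (1.12 ± 0.53), the coactivator Ppargc1b (1.78 ± 0.85), Lrpprc, the RNase P subunit Hsd17b10 (0.59 ± 0.38) and the RNA-binding protein Tbrg4 (0.65 ± 0.43). The summed CPM of the 39 genes was 1484 in HSCR proximal library 2, the library with the highest epithelial sum. It was 1046, 1101 and 1139 in HSCR proximal libraries 1, 3 and 4, within the 870 to 1141 of the WT proximal libraries. Distally, 20 of the 38 tested genes were positive and 18 negative with a median of 0.03. Tfam was the only gene at an unadjusted p under 0.05 there (0.64 ± 0.27, adjusted p = 1.00), where 0.879% of all genes were higher, and Polrmt (-0.13 ± 0.56), Twnk (-0.01 ± 0.31), Polg (-0.18 ± 0.40) and Lrpprc (-0.13 ± 0.30) were within their errors. The next smallest p-values were those of Mterf1b (-1.97 ± 1.05), Mterf4 (0.55 ± 0.30), the mitochondrial poly(A) polymerase Mtpap (0.54 ± 0.30) and the RNA granule protein Grsf1 (0.35 ± 0.24).

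Nuclear-encoded subunits of the respiratory chain and ATP synthase act in the same complexes as the mitochondrial mRNAs described here. Of 88 such genes, a list chosen after the mitochondrial values were seen, 84 were tested. Their median log2 fold change, HSCR against WT, was 0.34 in the proximal colon (73 positive and 11 negative, 0 at an unadjusted p under 0.05) and 0.27 in the distal colon (79 positive and 5 negative, with 2 genes, Ndufb9 and Cox4i1, higher at an unadjusted p under 0.05, where 0.879% of all genes were). Over all genes tested, 46.8% (proximal) and 46.1% (distal) had a negative value. The sign of these medians was therefore opposite to that of the 16 mitochondrial genes in both segments. In the proximal colon the summed CPM of the nuclear genes was 26855 in HSCR library 2, the library with the highest epithelial sum. It was 13907, 10861 and 14538 in HSCR libraries 1, 3 and 4, within the 9703 to 15415 of the WT libraries. The part of library 2 in the proximal sign was not tested. Distal against proximal, the median of the nuclear genes was -0.38 in WT and -0.42 in HSCR mice, with 76 and 81 of the 84 negative, the same sign as the mitochondrial genes. At an unadjusted p under 0.05, 7 were lower in WT, where 1.8% of all genes were, and 2 in HSCR mice, where 1.2% were. The summed CPM of the mitochondrial genes was 64.0, 16.5, 5.50 and 30.7 times that of these nuclear genes in WT proximal and 3.92, 2.29, 4.92 and 16.9 times in HSCR proximal libraries. The distal ratios were 21.0, 14.8, 6.48 and 4.57 in WT and 8.81, 5.61, 4.52 and 6.93 in HSCR libraries. WT proximal libraries 1 and 4 were highest, and the groups overlapped in both segments.

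Summed markers of other cell types varied between libraries of the same group. HSCR proximal library 2, with the highest epithelial sum, had the highest mt-Co1 and mt-Tp shares and the lowest mt-Cytb, mt-Nd5, mt-Nd2 and mt-Nd1 shares of the mitochondrial reads. Smooth muscle markers summed to 29762, 29404, 79185 and 77597 CPM in WT proximal libraries 1 to 4, so the libraries with the highest mitochondrial shares, 1 and 4, differed in this sum. Epithelial markers summed to 3473 CPM in WT proximal library 1, the library with the highest mitochondrial share, and to 15.3 to 88.2 CPM in the other 3 WT proximal libraries. Skeletal muscle markers were highest in HSCR proximal library 1 (2333 CPM), HSCR distal library 2 (1482 CPM) and WT distal library 1 (1257 CPM) and at most 291 CPM elsewhere. Adipocyte markers were highest in WT proximal library 1, at 223 CPM, and HSCR distal library 4, at 156 CPM, and Ucp1, the defining gene of brown fat, had counts in 1 library. The part of these cell types in the mitochondrial values was not tested.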

How the data were processed

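RNA-seq of 16 LMMP libraries was read from the deposited gene table. The authors used HISAT2 2.2.1 (genome mm39) for alignment and featureCounts 2.0.6 for counting, and the deposited counts are whole numbers without normalization. The authors' FPKM values are counts per kb of gene length and per a library depth that was not the plain total of counts. Medians of FPKM over libraries carry this scaling, while ratios between genes within a library do not. Fold changes and p-values of the authors' comparisons were deposited too and not used. The strand setting, the treatment of reads with 2 matches and the GENCODE release are not given in the sources used here.

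Groups follow the titles. Shares were computed from counts, and summed shares were given no test. Genes were tested with edgeR 4.0.16 (R 4.3.3; filterByExpr, TMM, quasi-likelihood, Benjamini-Hochberg adjustment over all genes), within each segment for genotype and over 16 libraries for segment and interaction. A call needs an adjusted p under 0.05 and a log2 fold change beyond 1. The labels do not say whether libraries with the same number share a mouse or litter, and the fits carry no block. Separate mice per library are not stated either, so p-values measure the spread between libraries, 4 per group. The tests were run on simulated data with known changes. A limit on recovery was set only at a dispersion below that of these data, and not for RUVr. The check therefore does not show how many true changes the tests find at the spread of these data.

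Members and lists were chosen with earlier results of these data known. Genes named are the coding and rRNA genes, tRNAs with counts, 5 expression factors plus the 5 smallest p-values per genotype comparison, and the chromosome 1 copies, and names beyond this rule (Ndufb9, Cox4i1, Ucp1) were chosen after their values were seen. Marker lists were summed as CPM. Exact matches were sought in GRCm39 with Python 3.11.15. Alternatives were DESeq2 1.42.0, limma 3.58.1 (voom), RUVr, other normalizations and filters, a library-name term, the replicate number as a block and leaving out libraries.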

Additional observations from a re-analysis of the deposited data

Results flagged for a closer look

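Of 76 sets of 4 libraries of 1 group that were examined for a library far from the other 3, 7 held such a library. Chance alone gives about 1 in 20 for independent sets. These sets are not independent, since the shares within a library sum to a fixed total, so no excess over chance is read from them. Of the 7, 6 were in HSCR proximal. There, library 4 had a mitochondrial share of 20.1% of all counts, where the other 3 lay between 5.56% and 6.68%. Library 2 stood apart in 4 shares of the mitochondrial reads. Its tRNA share was 0.123% against 0.0350% to 0.0450%, and its mt-Rnr1 share was 2.41% against 0.673% to 0.934%. Its mt-Cytb share was 14.2% against 17.4% to 17.9%, and its mt-Nd5 share 3.86% against 8.82% to 9.16%. This is the library with 14027 CPM of epithelial and 4451 CPM of smooth muscle markers, and their part in these shares was not tested. Library 4 also had the highest mt-Atp8 share, 0.0103% against 0.00408% to 0.00470%. In HSCR distal, the mt-Nd3 share of library 1, one of the libraries whose segment label is in doubt, was 0.0443% against 0.0690% to 0.0700%.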

How the results depend on the processing

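The 16 proximal log2 fold changes of single mitochondrial genes stayed negative in all 304 values from the alternatives, and 15 of them passed both limits under RUVr only. In the distal colon 278 of 304 were negative. The 26 positive ones belonged to 5 genes, and mt-Rnr2 passed both limits under RUVr. The exceptions were 0.36 (mt-Co3), 0.35 (mt-Atp6) and 0.35 (mt-Tp) with limma-voom, 0.22, 0.17 and 0.18 with RUVr, and 0.0745, 0.0625 and 0.0572 with the library-name series as a term. With the replicate number as a block they were 0.21, 0.20 and 0.12. For mt-Atp6 the value was 0.0450 with library totals only, 0.0052 with a filter of 10 summed counts and 0.0046 with no filter beyond 1 count. With 1 library left out, the distal values ran from -0.71 to 0.10 for mt-Nd6, -0.91 to 0.18 for mt-Co2, -0.37 to 0.60 for mt-Co3, -0.33 to 0.64 for mt-Atp6 and -0.53 to 0.48 for mt-Tp, and each highest value was without WT distal library 1. The causes were not tested.

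Genes called, 0 in each comparison with edgeR, were 181 (proximal genotype), 22 (distal genotype), 18 (segment in WT) and 6 (interaction) with DESeq2, 4 (proximal) with limma-voom, 4 (proximal) with the series term, and 3194 and 1450 with RUVr (proximal and distal). At an unadjusted p under 0.05, mitochondrial genes numbered 3 (proximal) and 0 (distal), and the alternatives gave 15 and 2 with DESeq2, 16 and 2 with RUVr, 6 and 1 with no filter beyond 1 count, 1 in the proximal colon with the series term, and 0 and 1 without HSCR library 1 of both segments. They ran from 0 to 14 and from 0 to 2 with 1 library left out. In the WT segment comparison the 6 became 13 with DESeq2, 15 with limma-voom, 10 with no filter beyond 1 count and 2 with the replicate block. The share of all genes at this limit is given for the main fits only, so the numbers from the alternatives have no background beside them. The block changed no call. Whether same-numbered libraries are paired is not stated, although the names of replicates 1 and 2 share an ending across the groups. Their deviations correlated by -0.23 to 0.49, not all above 0.1 in any comparison, and by 0.49, 0.09, 0.31 and 0.19 in the WT segment comparison, where 3 of 4 libraries correlated best with their own number.

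The differences in mitochondrial share kept their sign in the genotype comparisons, apart from 0.39 points within the second series in the distal colon. The proximal difference was -2.88 points and the WT segment difference 0.47 points without WT proximal libraries 1 and 4, an alternative chosen after seeing the data. The HSCR segment difference was 4.55 and -6.70 points within the first and second series. With 1 library left out, the proximal difference ran from -24.4 to -10.2 points, the distal from -7.33 to -0.87, the WT segment difference from -21.1 to -6.88 and the HSCR segment difference from -2.45 to 2.40. The median share of mt-Co1 among the mitochondrial reads was 30.4% by FPKM.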
